A study of Mus musculus with 447 samples.

Results

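Genes of endoderm and hepatocyte identity were followed in single cells of the fetal mouse pancreas, namely Foxa1, Foxa2, Foxa3, Hnf4a, Hnf4g, Gata4, Gata6 and Onecut1. They were taken by name as the forkhead A, HNF4, GATA4/6 and HNF6 genes, and all 8 were found among the 40824 genes of both deposited matrices. RNA was read by Smart-seq3, a plate-based full-length method with 1 sorted cell per well, in GFP-positive cells of stage E15.5. Each of the 447 samples was 1 cell. The first genotype was labelled Pdx1CreNgn3KONeurod1OE (here Ngn3KO, 235 cells), and the design text names it Pdx1CreER;Ngn3fl;Neurod1OE. The other was labelled Pdx1CreNeurod1OE (here Neurod1OE, 212 cells). All cells therefore came from a line in which a Pdx1-driven Cre acts in pancreatic progenitors and NeuroD1, a basic helix-loop-helix (bHLH) factor of endocrine cells, is overexpressed. The Ngn3KO group adds a floxed Neurog3 (Ngn3), the bHLH factor that normally comes before NeuroD1. Cells without added NeuroD1 were not analysed here. Titles divided the cells into set 2, with 322 cells, and set 3, with 30 Ngn3KO and 95 Neurod1OE cells. The sets were deposited as separate matrices and treated as batches.

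FOXA proteins are forkhead factors that bind compacted chromatin and open it in endoderm, and Foxa1 and Foxa2 act together in the pancreas upstream of Pdx1. HNF4 proteins are nuclear receptors that drive liver, gut and islet genes. GATA4 and GATA6 are zinc finger factors needed for early pancreatic growth, and GATA4 later marks the acinar lineage. ONECUT1 (HNF6) acts in progenitors and duct cells upstream of Neurog3, and is shut off as endocrine cells mature. Most of these factors were first described in liver, where they regulate each other and the secreted plasma proteins.

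The sequences upstream of these genes were searched for recognition motifs of the same families. The RefSeq promoter table (GRCm38.p6) held 5 of the 8 genes, and the 250 bases before each start were searched on both strands. For forkhead factors the letters searched were TGTTTNC. For GATA factors they were AGATAA, and for Onecut factors they were ATCAATA. The E-box, which bHLH factors such as NeuroD1 and Neurog3 bind, was searched as CANNTG. Its narrower form CAGATG, taken for NeuroD1 and Neurog3, was searched as well. Hnf4a has a distal and a proximal start on chromosome 2, with upstream windows at chr2:163506607-163506856 and chr2:163546905-163547154, plus strand. The windows of Foxa2 (chr2:148046970-148047219) and Foxa3 (chr7:19023540-19023789) lie on the minus strand, that of Foxa2 before the outermost of its listed starts. Hnf4a is shown for its motifs of the other families, and Foxa2 and Foxa3 for the contrast in their levels. Matches on either strand are in capitals.
Hnf4a distal: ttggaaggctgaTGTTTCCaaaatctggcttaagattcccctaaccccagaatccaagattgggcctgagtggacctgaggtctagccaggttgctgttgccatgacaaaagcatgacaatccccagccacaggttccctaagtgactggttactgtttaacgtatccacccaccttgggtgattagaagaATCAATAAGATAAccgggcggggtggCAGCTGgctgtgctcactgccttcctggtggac
Hnf4a proximal: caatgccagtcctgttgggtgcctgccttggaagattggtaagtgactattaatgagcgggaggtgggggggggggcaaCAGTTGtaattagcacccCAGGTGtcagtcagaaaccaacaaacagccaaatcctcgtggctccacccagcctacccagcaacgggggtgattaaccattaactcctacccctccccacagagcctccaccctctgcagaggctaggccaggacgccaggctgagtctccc
Foxa2: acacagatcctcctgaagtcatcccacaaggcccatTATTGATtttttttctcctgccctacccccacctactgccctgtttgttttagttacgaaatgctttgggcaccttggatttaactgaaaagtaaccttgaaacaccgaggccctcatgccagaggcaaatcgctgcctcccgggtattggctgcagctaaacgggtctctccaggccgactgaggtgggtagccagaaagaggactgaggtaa
Foxa3: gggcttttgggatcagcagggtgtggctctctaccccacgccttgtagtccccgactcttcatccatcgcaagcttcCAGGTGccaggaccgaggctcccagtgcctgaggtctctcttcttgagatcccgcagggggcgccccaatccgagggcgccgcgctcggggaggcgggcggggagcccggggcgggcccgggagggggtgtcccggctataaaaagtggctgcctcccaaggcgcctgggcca
The distal Hnf4a window held a forkhead, an Onecut, a GATA and an E-box match, with the Onecut match (59 to 53 bases before the start) directly followed by the GATA match (52 to 47 bases before). The proximal Hnf4a window held 2 E-boxes. The Foxa2 window held an Onecut match, written there as its reverse complement, and the Foxa3 window held an E-box. Of the other listed Foxa2 starts, not shown, the window at chr2:148045949-148046198 held no match and that at chr2:148045465-148045714 held an E-box and a GATA match. The Foxa1 window (chr12:57546112-57546361, minus strand), also not shown, held a forkhead match and an E-box. The Onecut1 window (chr9:74861671-74861920, plus strand), not shown either, held 2 E-boxes. None of the windows of these genes, shown or not, held the narrower E-box CAGATG. Across 32817 upstream windows of equal length, 1.86% held the Onecut letters, 9.99% the GATA letters, 17.8% the forkhead letters and 66.2% an E-box. CAGATG was in 14.5% of them. A match describes letters only, and read counts per gene do not tell the Hnf4a starts apart.

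Total counts per cell ranged from 25769 to 2788066. The median was 344128 in Ngn3KO and 572744 in Neurod1OE cells of set 2, and 728074 in Ngn3KO and 695079 in Neurod1OE cells of set 3. Counts were summed over the cells of a group and given as counts per 1000000 counts (CPM) with exact 95% Poisson intervals, and shares of cells have exact Clopper-Pearson intervals. Both cover counting error only. No label names an animal or litter, so each genotype in a set was 1 sample and no test was made. Cells were called Gcg-high or Cpa1-high at 1000 CPM of glucagon or of carboxypeptidase A1, the alpha-cell hormone and an acinar enzyme. Set 2 was nearly all Gcg-high, with 98.05% of its Ngn3KO and 94.87% of its Neurod1OE cells. In set 3, 29 of 30 Ngn3KO cells were Cpa1-high and 1 was Gcg-high, while the Neurod1OE cells were 15 Cpa1-high, 48 neither, 31 Gcg-high and 1 both. Neurog3 itself had 3.06 CPM in Ngn3KO and 3.89 CPM in Neurod1OE cells of set 2. In set 3 it had 3.72 CPM in Ngn3KO and 17.8 CPM in Neurod1OE cells, and 0.426 CPM in Ngn3KO and 5.39 CPM in Neurod1OE cells without the top cell of each. The labels do not say what the floxed allele loses after recombination, so these reads do not check the genotype. Neurod1 had 293.7 CPM in Ngn3KO and 346.8 CPM in Neurod1OE Gcg-high cells of set 2. In Cpa1-high cells of set 3 it had only 14.3 CPM in Ngn3KO and 37.8 CPM in Neurod1OE. Neither and Gcg-high cells of Neurod1OE set 3 had 293.6 and 261.1 CPM. No cells without added NeuroD1 were compared, so overexpression in each state was not tested.

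The genes split into widely detected and sparse ones, and the level per kilobase of exon, which allows genes to be compared, gave them an order. In the Gcg-high cells of set 2, Foxa2 stood first at 57.9 CPM per kb in Ngn3KO and 59.2 in Neurod1OE cells. It was followed by Foxa3 (20.8 in Ngn3KO and 24.3 in Neurod1OE), Hnf4a (9.04 and 9.55, in the same order of genotypes) and Gata6 (6.83 and 8.32). Gata4 had 2.12 CPM per kb in Ngn3KO and 2.07 in Neurod1OE cells, Hnf4g had 1.53 and 0.967, and Onecut1 had 0.0875 and 0.0278. The order was thus the same in both genotypes. It differed in Cpa1-high cells of set 3, where Foxa3 led with 60.6 CPM per kb in Ngn3KO and 46.8 in Neurod1OE cells. Foxa2 had 38.6 CPM per kb there in Ngn3KO and 44.4 in Neurod1OE cells, and Gata4 came next with 14.9 in Ngn3KO and 19.4 in Neurod1OE cells. The counting intervals of Foxa3 and Foxa2 overlapped in Neurod1OE Cpa1-high cells, as did those of Hnf4a and Gata6 (8.65 and 8.05 CPM per kb) and of Onecut1 and Hnf4g (1.33 and 1.06). Gata4 and Gata6 overlapped in Gcg-high Neurod1OE cells of set 3 (6.04 and 5.31 CPM per kb).

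**Figure D1:**
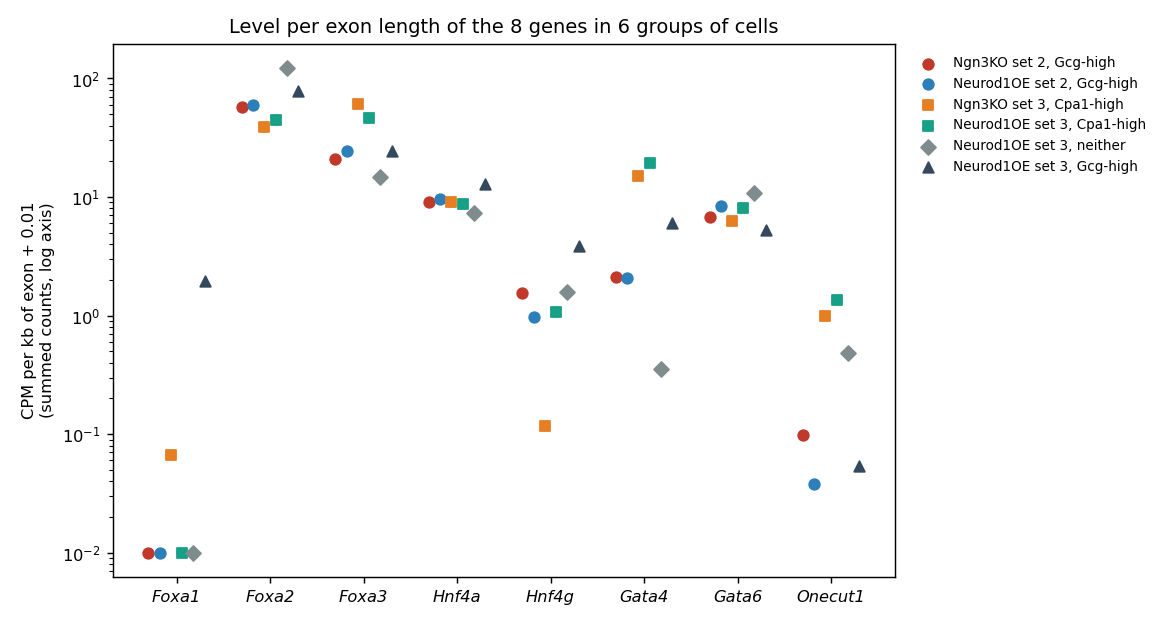
Level of the 8 genes per kilobase of exon, as CPM per kb plus 0.01 on a log axis, from counts summed over 6 groups of cells. Foxa2 was first in the 4 Gcg-high or neither groups and Foxa3 in the 2 Cpa1-high groups, while Gata4 spanned 0.341 to 19.4 CPM per kb.

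Foxa2 (chromosome 2, 148042877 to 148046969, minus strand, GRCm38), the FOXA gene most tied to islet cells, was read in 436 of 447 cells. In Gcg-high cells of set 2 its lowest, median and highest cells were 0, 115.6 and 592 CPM in Ngn3KO and 0, 133.3 and 615 CPM in Neurod1OE. In Cpa1-high cells of set 3 they were 1.41, 85.97 and 296 CPM in Ngn3KO and 0, 98.4 and 194.5 CPM in Neurod1OE. In Neurod1OE cells of set 3 they were 0, 202.1 and 1746 CPM in neither cells and 7.28, 141.1 and 592 CPM in Gcg-high cells. All groups overlapped cell by cell, and the cells of neither state reached highest. The cell at 1746 CPM gave 21.5% of the Foxa2 reads of its group, whose summed level was 290.2 CPM with it and 236 CPM without it. Over the 6 groups the summed level was highest in neither cells, then in Gcg-high Neurod1OE cells of set 3 (187.4 CPM). In Gcg-high cells of set 2 it was 137.1 CPM in Ngn3KO and 140.4 CPM in Neurod1OE, with overlapping counting intervals.

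Foxa3 (chromosome 7, 19013284 to 19023538, minus strand), a liver and gut forkhead gene, was present in 337 cells and separated the states more than Foxa2 did. In Cpa1-high cells its lowest, median and highest values were 0, 120.7 and 319.9 CPM in Ngn3KO and 4.86, 82.8 and 199.9 CPM in Neurod1OE. In Neurod1OE cells of set 3 they were 0, 0 and 293 CPM in neither cells and 0, 29.5 and 359 CPM in Gcg-high cells. Gcg-high cells of set 2 were at 0, 22.8 and 274 CPM in Ngn3KO and 0, 23.8 and 366 CPM in Neurod1OE. Most Cpa1-high cells lay above the medians of the other states, although the ranges overlapped. With every cell thinned to 165298 reads, Foxa3 was read in 100.0% of 26 Ngn3KO (interval 86.8 to 100.0) and 93.3% of 15 Neurod1OE Cpa1-high cells (68.1 to 99.8). The thinned share was 31.8% of 44 neither cells (18.6 to 47.6) and 69.2% of 26 Gcg-high cells of Neurod1OE set 3 (48.2 to 85.7). In 28 of the 44 thinned neither cells Foxa2 was read without Foxa3, and in 1 Foxa3 without Foxa2.

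Foxa1 (chromosome 12, 57540628 to 57546916, minus strand), the close relative of Foxa2, was nearly absent. It had 0 reads in the 322 cells of set 2, which allows a share of cells with a read of up to 0.932%. In set 3, 4 reads fell in 2 Ngn3KO Cpa1-high cells, and reads were found in 5 of 31 Gcg-high Neurod1OE cells (16.1%, interval 5.45 to 33.7). These 5 cells stood at 1.49, 3.32, 28.9, 49.2 and 75.5 CPM, and the highest gave 53.5% of the reads. No read was found in the 15 Cpa1-high and 48 neither cells of Neurod1OE set 3, which allows shares of cells with a read of up to 20% and 6.25%. A cell with no read may still express the gene.

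Hnf4a (chromosome 2, 163506808 to 163572910, plus strand), the nuclear receptor mutated in a monogenic form of diabetes, varied least among the 8 in summed level over the 6 groups, though not in the median cell. That level was 43.6 CPM in Ngn3KO and 46.1 CPM in Neurod1OE Gcg-high cells of set 2, and 43.9 CPM in Ngn3KO and 41.7 CPM in Neurod1OE Cpa1-high cells of set 3. Neither and Gcg-high cells of Neurod1OE set 3 had 35.3 and 61.8 CPM. These last groups were the lowest and the highest, and the counting intervals of the other 4 overlapped in a run. Median cells were at 29.9 CPM in Ngn3KO and 48.5 CPM in Neurod1OE Cpa1-high cells, and at 3.54 CPM in neither and 48.2 CPM in Gcg-high cells of Neurod1OE set 3. The highest cells reached 143.9 CPM in Ngn3KO and 113.3 CPM in Neurod1OE Cpa1-high cells, and 189.6 CPM in neither and 275 CPM in Gcg-high cells. The antisense gene Hnf4aos, which shares no exon base with Hnf4a, had 28 reads in Ngn3KO and 3 in Neurod1OE cells of set 2, and 0 in set 3.

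Hnf4g (chromosome 3, 3508030 to 3658052, plus strand), the intestinal relative of Hnf4a, was read in 58 cells. The median cell was 0 CPM in every group, so its sums rested on few cells. In Gcg-high cells of set 2 it was read in 21 Ngn3KO and 14 Neurod1OE cells (10.4% and 12.6%), with highest cells of 129.3 CPM in Ngn3KO and 80.1 CPM in Neurod1OE. In Cpa1-high cells it was read in 3 of 29 Ngn3KO and 2 of 15 Neurod1OE cells, and in the Neurod1OE cells 1 cell gave 95.9% of the reads. In Neurod1OE set 3 it was read in 8 of 48 neither cells and in 7 of 31 Gcg-high cells. The neither cell with most Hnf4g reads gave 90.3% of the reads of that state, while the Gcg-high cells reached 56.9 CPM.

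Gata4 (chromosome 14, 63198922 to 63271692, minus strand), the GATA factor of the acinar lineage, differed most between states among the genes above the level limit. In Cpa1-high cells its lowest, median and highest values were 0, 42.99 and 373 CPM in Ngn3KO and 0, 45.1 and 219.6 CPM in Neurod1OE. In Neurod1OE set 3 they were 0, 0 and 120.2 CPM in neither cells and 0, 0 and 154.4 CPM in Gcg-high cells. Gcg-high cells of set 2 were at 0, 0 and 258 CPM in Ngn3KO and at 0, 0 and 93.6 CPM in Neurod1OE. The Cpa1-high medians thus lay above those of all other groups, with overlapping ranges. At equal depth Gata4 was read in 84.6% of Ngn3KO and 86.7% of Neurod1OE Cpa1-high cells. The share was 4.55% of neither and 42.3% of Gcg-high cells in Neurod1OE set 3, and 22.2% of Ngn3KO and 22.5% of Neurod1OE Gcg-high cells in set 2.

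Gata6 (chromosome 18, 11052064 to 11085635, plus strand), the GATA factor of early pancreas and human pancreatic agenesis, was read in 338 cells. Its lowest, median and highest cells were 0, 15.6 and 266 CPM in Ngn3KO and 0, 19.2 and 314 CPM in Neurod1OE Gcg-high cells of set 2. In Cpa1-high cells they were 0, 31.7 and 144.6 CPM in Ngn3KO and 0, 33.5 and 100.9 CPM in Neurod1OE. In Neurod1OE set 3 they were 0, 51.03 and 337 CPM in neither cells and 0, 10.3 and 187.6 CPM in Gcg-high cells, with full overlap. Gata6 was therefore read where Gata4 was not: of 44 thinned neither cells, 31 had Gata6 without Gata4, 2 had both and 0 had Gata4 alone. An opposite-strand gene, 1010001N08Rik, shares 93 exon bases (1.43%) with Gata6, and the strand setting of the counting is not stated. It had 2.96 to 6.79 CPM across the 6 groups.

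Onecut1 (chromosome 9, 74861921 to 74891781, plus strand) was read in 49 cells, and most often in Cpa1-high ones. It had 4.04 CPM and reads in 44.8% of Ngn3KO (interval 26.5 to 64.3) and 5.47 CPM and reads in 66.7% of Neurod1OE Cpa1-high cells (38.4 to 88.2). In Neurod1OE set 3 it had 1.96 CPM in neither cells and 0.179 CPM in Gcg-high cells, read in 16.7% and 6.45% of them. At equal depth Onecut1 was read in 26.9% of Ngn3KO and 46.7% of Neurod1OE Cpa1-high cells. Its equal-depth share was 13.6% of neither and 0% of Gcg-high cells of Neurod1OE set 3. In Gcg-high cells of set 2 it had 0.36 CPM in Ngn3KO and 0.114 CPM in Neurod1OE, from 28 and 8 reads. A single cell gave 67.9% of the Ngn3KO reads, and the level without it was 0.117 CPM. The lincRNA Gm20649 on the same strand covers 52.8% of the Onecut1 exon bases and had 0 reads in every cell. How reads common to both were assigned is not stated, so the level of Onecut1 is uncertain.

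**Figure D2:**
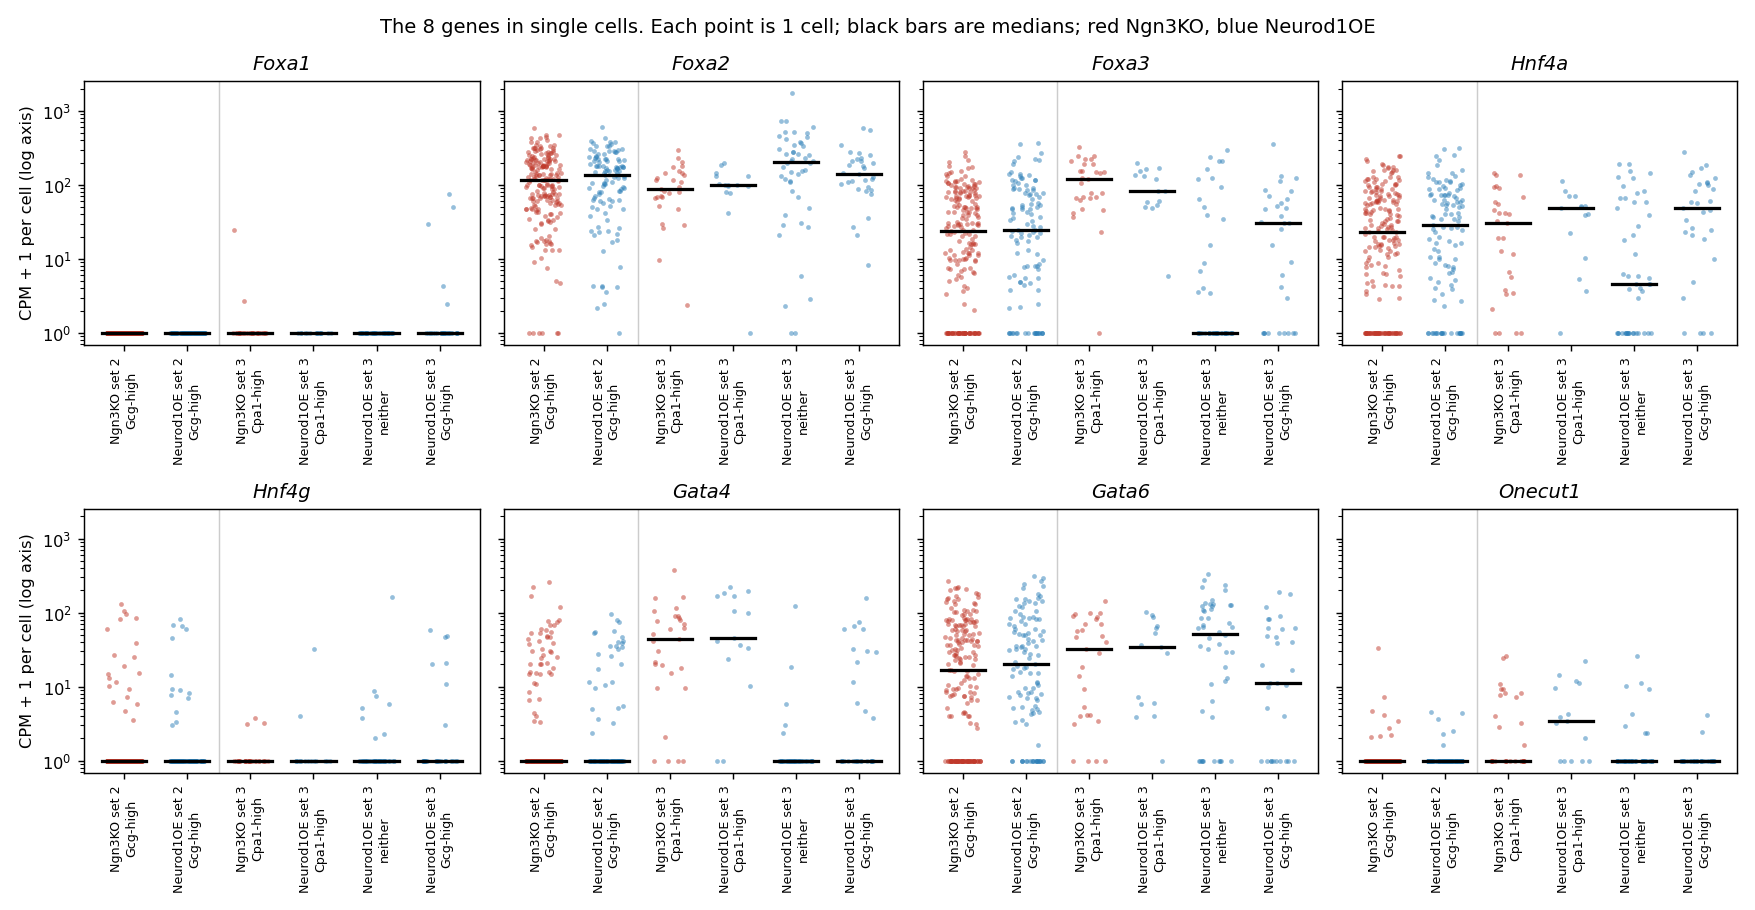
The 8 genes in single cells, as CPM plus 1 on a log axis, with 1 point per cell and the median as a bar, in 6 groups (Ngn3KO red, Neurod1OE blue). Gata4 and Foxa3 medians were higher in Cpa1-high cells than elsewhere, and Foxa2 was read in nearly every cell of every group.

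**Figure D3:**
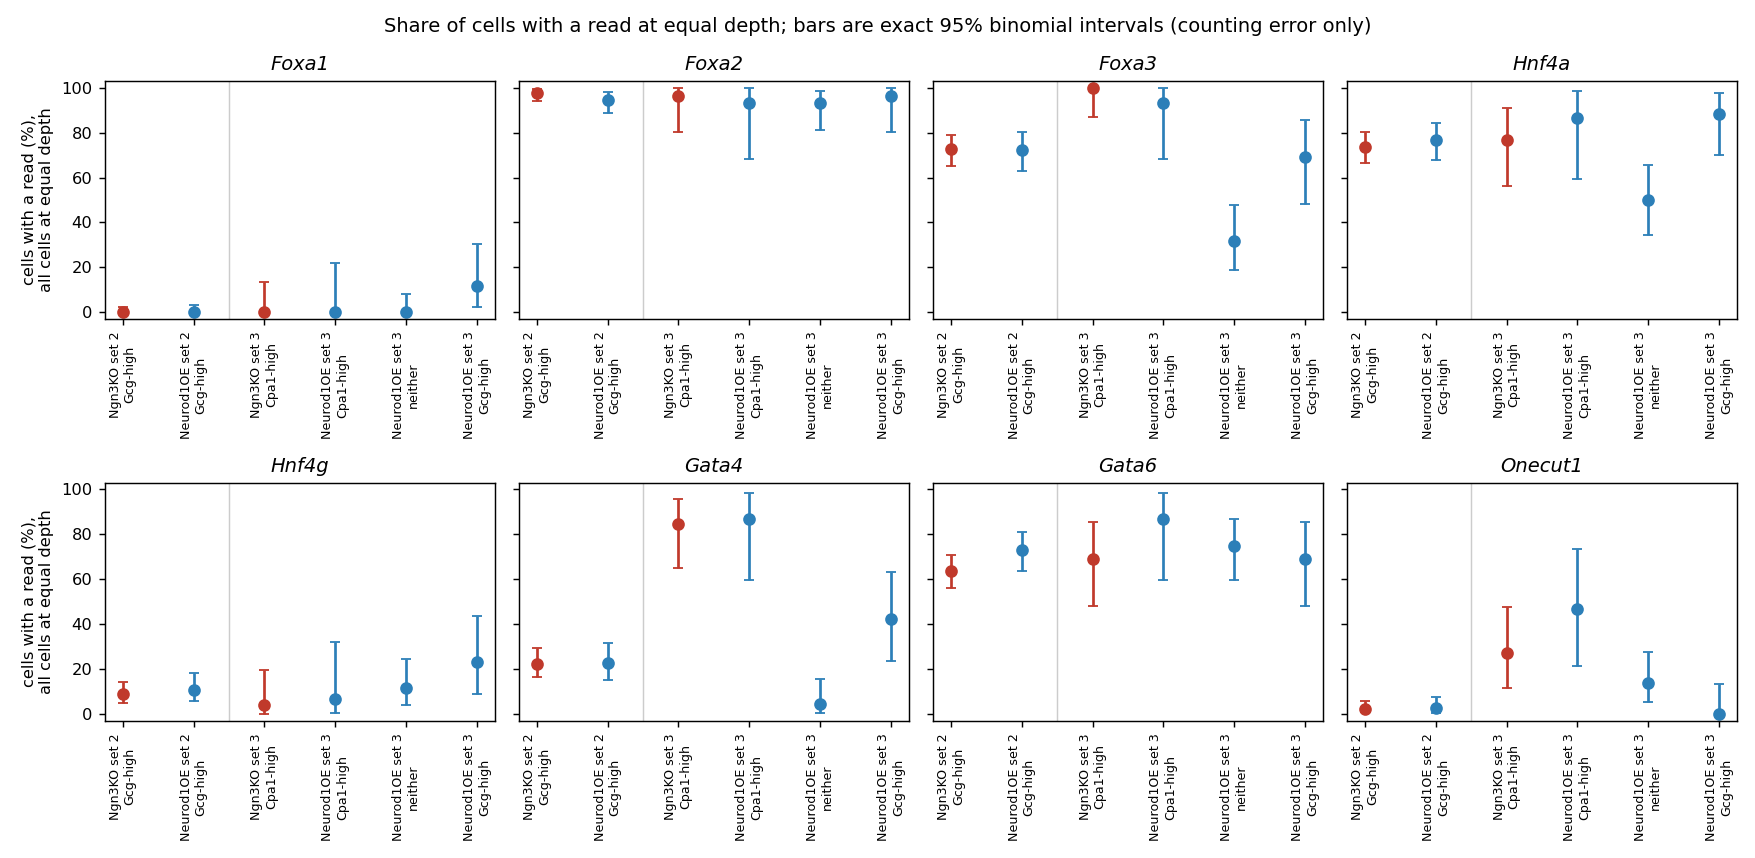
Share of cells with a read after thinning each cell to 165298 reads, with exact 95% binomial intervals, for the same 6 groups. Gata4 was read in 84.6% and 86.7% of the Cpa1-high cells of Ngn3KO and Neurod1OE, and in 4.55% of neither cells.

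The first comparison was between genotypes in the alpha-like Gcg-high cells of set 2. Genes were taken as measured if either group reached 10 CPM with reads in 10% of its cells, and as higher or lower at 2-fold on the scale of log2(CPM + 1). Of the 8 genes, 4 were measured (Foxa2, Foxa3, Hnf4a and Gata6) and 0 were 2-fold apart, against 2.36% of all 9986 measured genes. Foxa2 had 137.1 CPM in Ngn3KO and 140.4 CPM in Neurod1OE cells (log2 ratio -0.03), and Hnf4a had 43.6 and 46.1 CPM in the same order (-0.08). Foxa3 had 42.3 CPM in Ngn3KO and 49.6 CPM in Neurod1OE cells (-0.23), and Gata6 had 44.4 and 54.1 CPM (-0.28). The median of all measured genes was -0.06. Over all cells of set 2, 4 genes were again measured and 0 were 2-fold apart, against 2.53% of 10010 measured genes. In such sums, fewer cells that express a gene and less RNA per cell cannot be told apart.

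Set 2 held subsets that the labels do not name, and the genes were compared within them. The predicted gene Gm12338 was under 10 CPM (negative) in 96 Ngn3KO and 65 Neurod1OE Gcg-high cells, and at or over it (positive) in the others. Foxa2 had 134.6 CPM in Ngn3KO and 111.5 CPM in Neurod1OE cells that were Gm12338-positive. It had 140.3 CPM in Ngn3KO and 170.2 CPM in Neurod1OE cells that were Gm12338-negative, so its direction turned between the subsets, at log2 ratios of 0.27 and -0.28, and so did that of Hnf4a, at 0.15 and -0.23. Gata4 had 7.10 CPM in Ngn3KO and 2.42 CPM in Neurod1OE positive cells, under the level limit, and 9.77 CPM in Ngn3KO and 13.9 CPM in Neurod1OE negative cells. Gata6 and Foxa3 were lower in Ngn3KO in both subsets, each by under 2-fold. By Xist and Y-linked reads, 0 Ngn3KO cells of set 2 were male, against 50 male and 66 female Neurod1OE cells. Among female Gcg-high cells, 5 of the 8 genes were measured and 0 were 2-fold apart, against 3.89% of 9957 measured genes. Gata6 then had 44.9 CPM in Ngn3KO and 43.3 CPM in Neurod1OE cells (0.05), and Foxa2 had 137.7 and 170.3 CPM (-0.30). Gata4, which passed the level limit there, had 8.39 CPM in Ngn3KO and 13.3 CPM in Neurod1OE cells (-0.61).

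In set 3 the genotypes differed in cell state, as counted above. They also differed in Gm12338, which was at 10 CPM or more in 0 of 30 Ngn3KO and 71 of 95 Neurod1OE cells. Its part in the set 3 ratios was not tested. Over all cells, 5 genes were measured and 2 were 2-fold apart, against 37.8% of 10478 measured genes, of which 624 were higher and 3332 lower. Foxa3 was the higher one, with 119.3 CPM in Ngn3KO and 52.98 CPM in Neurod1OE cells (log2 ratio 1.16). Foxa2 was the lower one, with 102.2 CPM in Ngn3KO and 209 CPM in Neurod1OE cells (-1.02). Gata4 had 56.4 CPM in Ngn3KO and 28.4 CPM in Neurod1OE cells (0.97), just under 2-fold. The median of all measured genes was -0.57. TMM scaling brought that median to -0.06 and the split to 1343 higher and 1879 lower. Under it Foxa2 had a ratio of -0.54 and Gata4 of 1.44, so that Foxa2 was no longer 2-fold apart and Gata4 was. Among male cells, all 30 of the Ngn3KO and 66 of the Neurod1OE cells, the ratios were 1.27 for Foxa3, -1.09 for Foxa2 and 1.45 for Gata4.

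Within Cpa1-high cells of set 3, 5 genes were measured and 0 were 2-fold apart, against 22.3% of 9588 measured genes (419 higher and 1723 lower, and 764 and 999 under TMM). Foxa3 had 123.5 CPM in Ngn3KO and 95.3 CPM in Neurod1OE cells (0.37). Foxa2 had 91.5 CPM in Ngn3KO and 105.3 CPM in Neurod1OE cells (-0.20, or 0.10 under TMM). Gata4 had 58.3 CPM in Ngn3KO and 75.6 CPM in Neurod1OE cells (-0.37), opposite to its direction over all cells. Hnf4a had 43.9 CPM in Ngn3KO and 41.7 CPM in Neurod1OE cells (0.07), and Gata6 had 40.96 and 52.4 CPM (-0.35). The median of all measured genes was -0.34. Cells with at least 2000 CPM of 16 pan-endocrine markers made up 3 of the 29 Ngn3KO and 5 of the 15 Neurod1OE Cpa1-high cells, and 0 of the 8 genes were called without them. Summed mesenchymal markers had 1038 CPM in Ngn3KO and 81.4 CPM in Neurod1OE Cpa1-high cells, with 1 Ngn3KO cell at 17990 CPM. Gm12338 was at 10 CPM or more in 0 of the 29 Ngn3KO and 14 of the 15 Neurod1OE Cpa1-high cells. The part of the mesenchymal markers and of Gm12338 in these values was not tested.

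**Figure D4:**
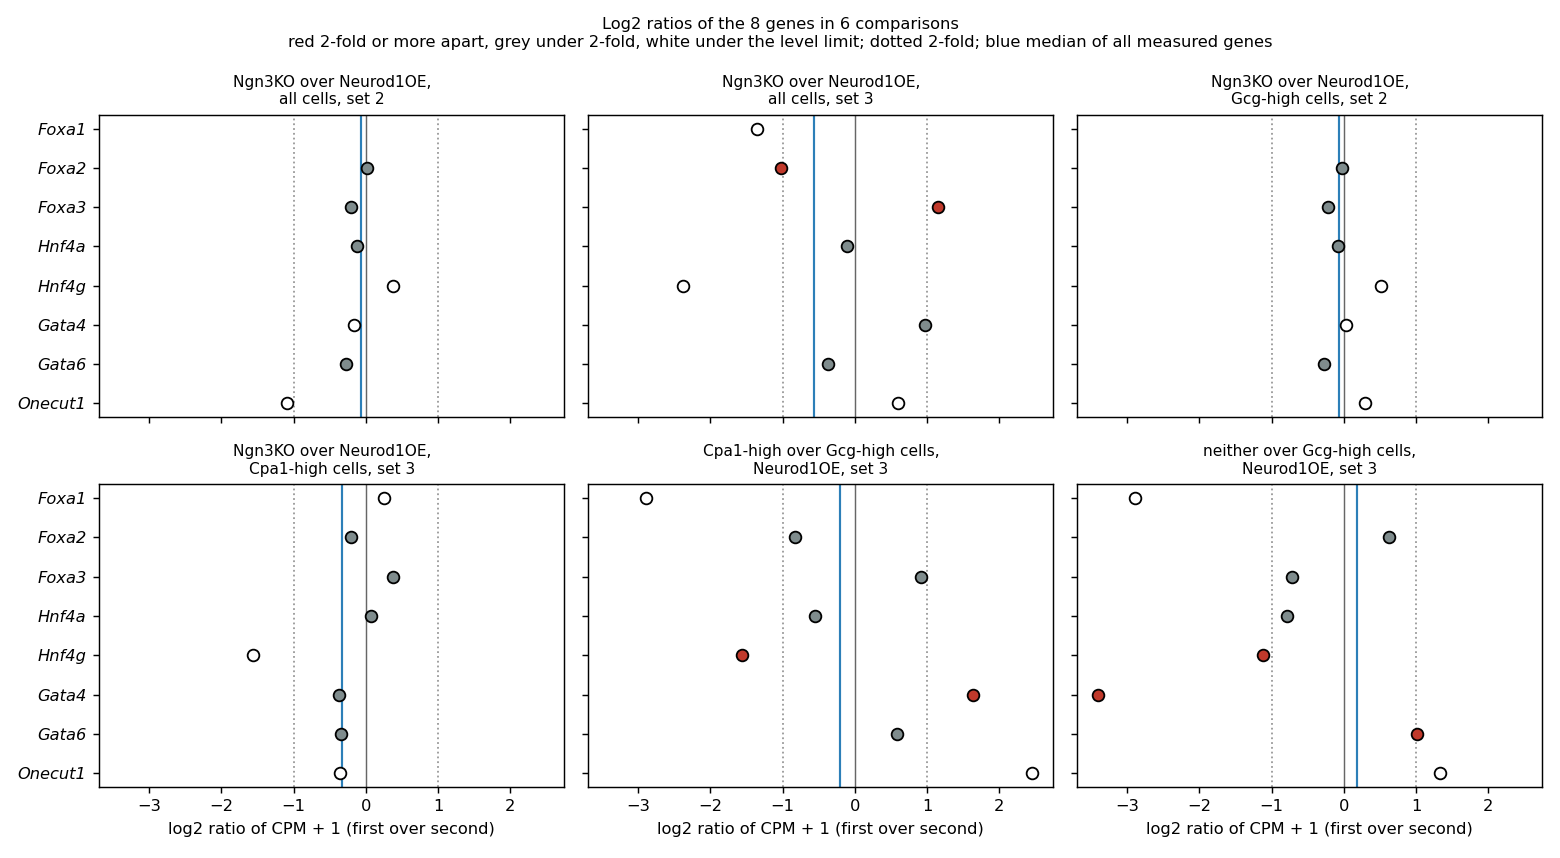
Log2 ratios of CPM plus 1 for the 8 genes in 6 comparisons, first group over second, with the median of all measured genes as a blue line. Red points were at least 2-fold apart, grey points under it, and white points under the limit of 10 CPM and 10% of cells. In set 2 the measured genes lay between -0.28 and 0.01.

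Cell states were then compared within the 95 Neurod1OE cells of set 3, so that genotype and set were shared. Sex and depth differed between the states. Cpa1-high cells were 6 male and 9 female, with a median total of 1375505. Gcg-high cells were 26 male and 5 female (682756), and neither cells 33 male and 15 female (587829.5). In Cpa1-high cells against Gcg-high cells, 6 of the 8 genes were measured and 2 were 2-fold apart, against 45.3% of 10683 measured genes (2063 higher and 2775 lower, and 2401 and 2367 under TMM). Gata4 was higher, with 75.6 CPM in Cpa1-high and 23.6 CPM in Gcg-high cells (log2 ratio 1.64). Foxa3 had 95.3 CPM in Cpa1-high and 49.9 CPM in Gcg-high cells (0.92), and Foxa2 had 105.3 and 187.4 CPM in the same order (-0.83). The ratio of Foxa3 passed 2-fold with each cell weighted equally (1.12), at equal depth (1.24) and under TMM (1.08). Gata6 had 52.4 CPM in Cpa1-high and 34.5 CPM in Gcg-high cells (0.59), and Hnf4a had 41.7 and 61.8 CPM (-0.55). Hnf4g was lower, with 2.79 CPM in Cpa1-high and 10.2 CPM in Gcg-high cells (-1.56). Without the top cell of each state it had 0.125 and 7.11 CPM, both under the level limit. It passed that limit only through the Gcg-high cells, so it could not have been called higher. Onecut1 was under the level limit, with a ratio of 2.46 from 96 reads in Cpa1-high and 4 reads in Gcg-high cells. Gcg itself was read in all 15 Cpa1-high cells at a median of 53.03 CPM, against 42390 CPM in Gcg-high cells.

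Cells of neither state were mixed, with summed duct and trunk markers from 22.4 to 18480 CPM per cell and summed pan-endocrine markers from 86.4 to 21400 CPM. Against Gcg-high cells, 6 of the 8 genes were measured and 3 were 2-fold apart, against 31.5% of 10839 measured genes (2084 higher and 1328 lower, and 1768 and 1558 under TMM). Gata6 was higher, with 70.7 CPM in neither and 34.5 CPM in Gcg-high cells (log2 ratio 1.012). Its ratio was under 2-fold with each cell weighted equally (0.93), at equal depth (0.98) and under TMM (0.88). Gata4 was lower, with 1.33 CPM in neither and 23.6 CPM in Gcg-high cells (-3.40), and it was at least 2-fold lower under every alternative tried, nearest to it with states set at 2000 CPM (9.68 CPM in neither and 27.7 CPM in Gcg-high cells, -1.43). Hnf4g was lower, with 4.13 CPM in neither and 10.2 CPM in Gcg-high cells (-1.12), but at equal depth it had 4.68 and 5.58 CPM (-0.21). Gata4 and Hnf4g passed the level limit here only through the Gcg-high cells, so neither gene could have been called higher. Foxa2 had 290.2 CPM in neither and 187.4 CPM in Gcg-high cells (0.63). Foxa3 had 30.1 CPM in neither and 49.9 CPM in Gcg-high cells (-0.71), and Hnf4a had 35.3 and 61.8 CPM (-0.79). Foxa2 and Foxa3 thus had opposite signs in both comparisons of states, each by under 2-fold. Foxa1 was under the level limit, and among these Neurod1OE cells of set 3 it had no read outside the Gcg-high cells.

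Other factors of the same network were listed as partners, and several of them differed between states by more than the 8 genes did. In Cpa1-high against Gcg-high cells, 13 of 23 partner factors were measured, 5 were higher and 4 lower. Their median was 0.16, against -0.21 for all genes, of which 45.3% were 2-fold apart. Nr0b2, a corepressor of nuclear receptors, had 32.2 CPM in Cpa1-high and 0.179 CPM in Gcg-high cells (4.81). Nr5a2, an acinar nuclear receptor, had 71.1 and 2.51 CPM in the same order (4.36). Cebpa, a liver bZIP factor, had 32.1 CPM in Cpa1-high and 1.30 CPM in Gcg-high cells (3.85). Nr1h4, the bile acid receptor, went the other way with 0.114 CPM in Cpa1-high and 28.04 CPM in Gcg-high cells (-4.71). Onecut2, the relative of Onecut1, had 3.13 CPM in Cpa1-high and 37.2 CPM in Gcg-high cells (-3.21), opposite to Onecut1.

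In neither against Gcg-high cells, 11 partner factors were measured, 4 were higher and 1 lower, with a median of 0.24 against 0.18 for all genes, of which 31.5% were 2-fold apart. Onecut2 had 194.6 CPM in neither and 37.2 CPM in Gcg-high cells (2.36), and Hhex, a homeobox gene of foregut and delta cells, had 160.3 and 68.5 CPM (1.22). Nr5a2 had 12.1 CPM in neither and 2.51 CPM in Gcg-high cells (1.90). Of 17 other forkhead genes, 11 were measured for Cpa1-high cells, with 1 higher and 2 lower, where 45.3% of all genes were 2-fold apart. For neither cells 12 were measured, with 3 higher and 0 lower, against 31.5% of all genes. Foxm1, a proliferation factor, was higher in both states. It had 28.2 CPM in Cpa1-high, 15.4 CPM in neither and 2.29 CPM in Gcg-high cells. Of 6 GATA relatives and cofactors only Zfpm1 was measured, with 36.96 CPM in Cpa1-high and 16.7 CPM in Gcg-high cells (1.10). Between genotypes in Gcg-high cells of set 2, 0 of 8 measured partners and 0 of 11 measured forkhead genes were 2-fold apart. The share was 2.36% of all 9986 measured genes, so such counts do not set these lists apart.

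The secreted plasma proteins that FOXA and HNF4 factors drive in liver were mostly higher in the Gcg-high cells of Neurod1OE set 3. The 23 listed genes summed to 46530 CPM there, of which Ttr alone gave 40540 CPM. In Gcg-high cells of set 2, a separate batch, they summed to 11150 CPM in Ngn3KO and 9524 CPM in Neurod1OE. In Cpa1-high against Gcg-high cells, 17 of 23 were measured, 2 were higher and 12 lower. Their median was -1.56, against -0.21 for all 10683 measured genes, of which 45.3% were 2-fold apart. Ttr, the thyroxine carrier also made by alpha cells, had 2000 CPM in Cpa1-high and 40540 CPM in Gcg-high cells (-4.34). Fgb, a fibrinogen chain, had 1.60 and 177.5 CPM in the same order (-6.10), and Apoa1, an apolipoprotein, had 5.75 and 183.3 CPM (-4.77). Vtn, a matrix protein, was higher with 398.9 CPM in Cpa1-high and 7.97 CPM in Gcg-high cells (5.48). In neither against Gcg-high cells the median of the list was -2.67, against 0.18 for all genes. Between genotypes in Gcg-high cells of set 2, 14 were measured and 1 differed, against 2.36% of all 9986 measured genes. Afp, fetal alpha-fetoprotein, was the 1 that differed, with 81.3 CPM in Ngn3KO and 13.6 CPM in Neurod1OE cells (2.498). In Cpa1-high cells of set 3, 5 of 13 were lower in Ngn3KO, with a median of -0.75 against -0.34 for all 9588 measured genes, of which 1723 were lower. Among the 5 was Serpina1a with 3.10 CPM in Ngn3KO and 148.9 CPM in Neurod1OE cells (-5.19).

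Islet genes that FOXA2 and HNF factors are known to drive were taken as a last list of 9, of which 8 were in the matrices. In Gcg-high cells of set 2, 7 were measured and 1 was 2-fold apart, against 2.36% of all measured genes. Slc2a2, the glucose transporter GLUT2, was higher with 14.4 CPM in Ngn3KO and 0.300 CPM in Neurod1OE cells (3.57). In Cpa1-high against Gcg-high cells 3 of 5 were lower, with a median of -1.33. For all genes the median was -0.21, and 45.3% were 2-fold apart in either direction. G6pc2, an islet glucose phosphatase, had 0.114 CPM in Cpa1-high and 51.8 CPM in Gcg-high cells (-5.57).

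**Figure D5:**
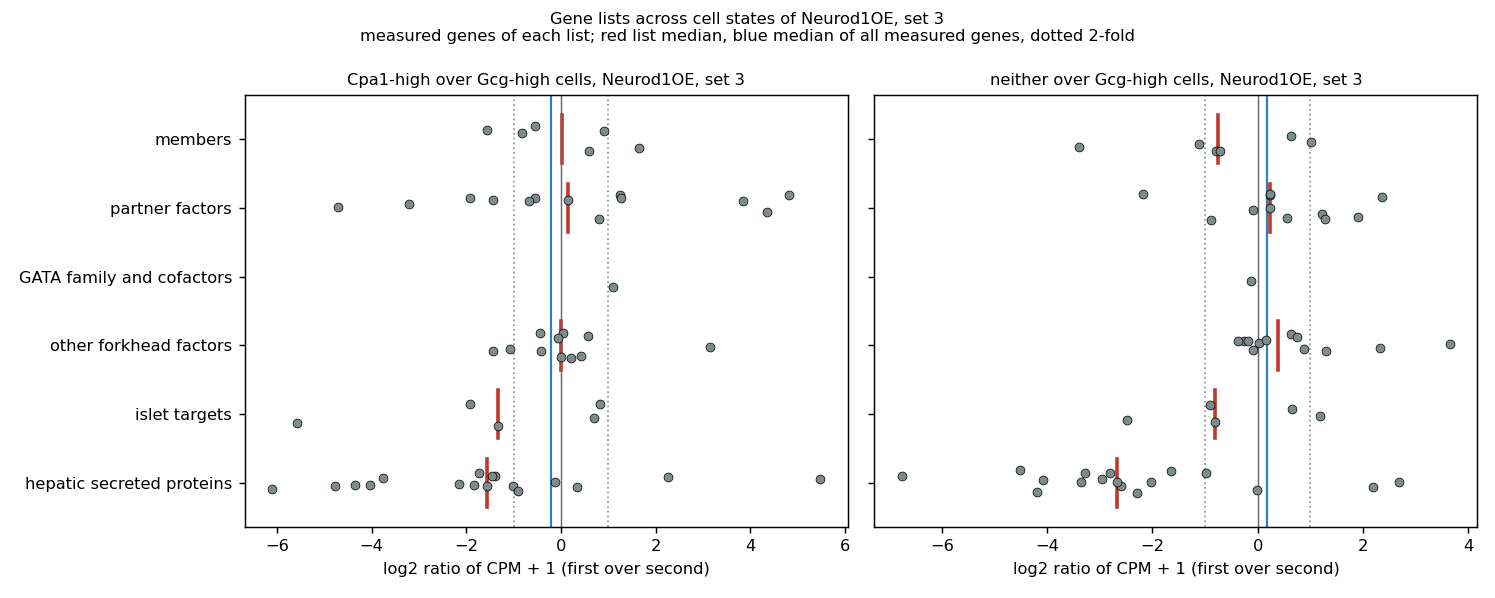
Log2 ratios of CPM plus 1 for the measured genes of 6 lists in Neurod1OE set 3, Cpa1-high (left) and neither (right) over Gcg-high cells, with list medians in red and the median of all measured genes in blue. The hepatic secreted proteins had medians of -1.56 and -2.67, against -0.21 and 0.18 for all genes.

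Across single cells the 8 genes varied with each other only in part. Cells of 1 group share library preparation and set, their depths differ, and zeros are common, so correlations of log2(CPM + 1) are given as descriptions. Over the 95 Neurod1OE cells of set 3, Gata4 had Pearson's r of 0.58 with Foxa3, 0.58 with Cpa1 and -0.41 with Neurod1. These cells span the states, which were themselves set by Cpa1 and Gcg. Gata4 and Cpa1 had r of 0.114 within neither and 0.065 within Gcg-high cells. Gata4 and Neurod1 had -0.0 and -0.11 in the same order. In the 29 Ngn3KO Cpa1-high cells Gata4 had 0.23 with Cpa1 and -0.39 with Neurod1. Foxa3 and Gata4 had r of 0.47 within the 48 neither cells and 0.43 within the 31 Gcg-high cells, all of them under 1000 CPM of Cpa1. Only 5 of the 48 neither cells had a Gata4 read and 18 a Foxa3 read, so the value there rests on few cells. The same pair had r of -0.03 in the 29 Ngn3KO Cpa1-high cells, and -0.01 in Ngn3KO and 0.02 in Neurod1OE Gcg-high cells of set 2. Foxa2 had r of 0.44 with Neurod1 in the 48 neither cells, but -0.003 in the 31 Gcg-high cells of the same genotype and set. For that pair r was 0.30 in the 29 Ngn3KO Cpa1-high cells. It was 0.11 in Ngn3KO and 0.22 in Neurod1OE Gcg-high cells of set 2.

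The genes most like each of the 8 were sought among 10602 genes with reads in at least 20% of cells of both sets, by the mean of the correlations in the 322 cells of set 2 and in all cells of set 3. Foxa3 was most like the acinar genes Pnliprp1 (0.43) and Clps (0.41) and Serpinb1a (0.38). Gata4 was most like Pnliprp1 (0.43), Cela1 and Clps (0.39 each), all pancreatic enzyme or cofactor genes. Foxa2 was most like Gse1, Fev and Neurod1 (0.27, 0.27 and 0.26). Onecut1 was most like Mt2 (0.40), Rps18 and Nfib. Hnf4a had St5, Kif3b and Grb7 at 0.30 or less, Hnf4g had 0610009E02Rik, Celsr3 and Hspa12a, and Gata6 had Cpsf1, Uhrf2 and Rell1, all at 0.23 or less. The correlations of Foxa3 and Gata4 were larger in set 3 (0.64 and 0.71 with Pnliprp1), which held both acinar and endocrine cells, than in set 2 (0.22 and 0.15). Foxa1 had no value because set 2 held no read of it.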

How the data were processed

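The authors deposited raw read counts per gene and cell, 1 sparse matrix per set, with no scaling applied. Per the submitters' processing notes the tools were Trimmomatic 0.39, HISAT2 2.1.0, the build mm10 and featureCounts 2.0.0. The gene annotation, strand setting, use of molecular identifiers and any cell filter are not given in the sources used here. The 92 ERCC spike-ins were left out of totals, and no cell was removed (the fewest genes in a cell was 4114). Counts were summed per genotype, set and state, scaled to CPM by the plain total, and compared as log2(CPM + 1). Exact intervals are at 95%, and a limit for 0 rests on 3 counts or cells. For equal depth, cells were thinned to 165298 reads, the 10th percentile of totals, and shallower cells (31 Ngn3KO and 2 Neurod1OE in set 2, 3 and 9 in set 3) were left out. Exon lengths came from GENCODE vM21. No doublet caller was run on sorted single wells, and sets share no cell title. Scripts were tested on simulated data. Scaling factors alone came from edgeR 4.0.16 (TMM) and DESeq2 1.42.0 in R 4.3.3; the rest was computed in Python 3.11.15 (scipy 1.17.1, numpy 2.4.6, pandas 2.3.3, matplotlib 3.10.9).

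The 8 genes and the lists were chosen with earlier results of these data known. Named genes were the 8 genes whatever their values, up to 4 of each other list that were at least 2-fold apart by size, and the 3 genes most like each of the 8. Alternatives were other scalings, no filter, a pseudocount of 0.1 CPM, cells weighted equally, top cells left out, equal depth, subsets by Gm12338 or sex, and state limits of 500 and 2000 CPM. The comparisons without Cpa1-high cells at 2000 CPM or more of pan-endocrine markers, and among female cells of set 2, were added after the data were seen. Gene lists, with counts summed in all cells, also covered gut or stomach epithelium, endothelium, immune and erythroid cells, which stayed at or under 45.4 CPM in every group and state of at least 10 cells. Summed hepatocyte markers, mostly Ttr, were highest in Gcg-high Neurod1OE cells of set 3 (41320 CPM), where Ahsg had 0 reads.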

Additional observations from a re-analysis of the deposited data

Results flagged for a closer look

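Foxa3, Hnf4g and Onecut1 had opposite signs between genotypes in the 2 sets, with counting intervals that did not overlap in either set; the difference between sets was not tested. The log2 ratio of Ngn3KO over Neurod1OE over all cells was -0.206 in set 2 and 1.156 in set 3 for Foxa3. It was 0.37 and -2.383 for Hnf4g, and -1.092 and 0.596 for Onecut1, in the same order of sets. Hnf4g and Onecut1 were under the level limit in both sets, and Hnf4g had only 6 reads in Ngn3KO cells of set 3. The Foxa3 ratio of set 2 was under 2-fold. Set 2 was nearly all Gcg-high, while 29 of 30 Ngn3KO cells of set 3 were Cpa1-high, so the sets compared different mixtures of states. In set 2, 1 cell gave 94.4% of the Onecut1 reads of Neurod1OE. Without the top cell of each genotype the Onecut1 ratio of set 2 was 0.005, and in Gcg-high cells of set 2 it was 0.29, so the opposite sign rests on that cell. The Hnf4g ratio of set 2 was -0.53 with each cell weighted equally and -0.31 at equal depth, so its sign rests on the weighting. Within Cpa1-high cells of set 3 the ratios were 0.37 for Foxa3, -1.56 for Hnf4g and -0.36 for Onecut1.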

How the results depend on the processing

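Of 474 recomputed log2 ratios of the 8 genes, 314 lay within the counting interval of the reported value, and 0 of those called 2-fold apart changed sign. Of 62 recomputed numbers of genes 2-fold apart 47 stayed within 1.5 times, and of 62 over the 8 genes alone 53 did. Shares here are of the genes measured. Without the filter on low values, 4.4% of genes were 2-fold apart for all cells of set 2 (2.53% with it), 29.5% for all cells of set 3 (37.8%), 4.36% for Gcg-high cells of set 2 (2.36%), 22.9% for Cpa1-high cells of set 3 (22.3%), 38.5% for Cpa1-high over Gcg-high cells (45.3%) and 28.8% for neither over Gcg-high cells (31.5%), with over 1.5 times as many genes each time because more were counted. Of the 8 genes, 1, 4, 1, 4 and 5 were then 2-fold apart in these comparisons, Gcg-high cells of set 2 left out, against 0, 2, 0, 2 and 3. With the top cell of each gene left out the share was 1.61% over all cells of set 2 and 1.45% in its Gcg-high cells. In Gm12338-positive and Gm12338-negative cells it was 7.75% and 4.92% over all cells of set 2, and 8.54% and 4.22% in Gcg-high cells. In female cells, compared after the data were seen, it was 4.17% over all cells of set 2 and 3.89% in Gcg-high cells. Among male cells, 34.4% of genes were 2-fold apart in Cpa1-high cells of set 3, and 4 of the 8 genes between Cpa1-high and Gcg-high cells. Between neither and Gcg-high cells, 1 of the 8 genes was 2-fold apart with each cell weighted equally, 1 at equal depth and 1 with states set at 2000 CPM. The cause of these shifts was not tested. Leaving out a replicate was not run, because each genotype in a set was 1 sample. No paired analysis was possible because the results come from no test and the numbers in the titles only name cells. Reads of Foxa1, Hnf4g and Onecut1 came from few cells. The share of cells with an Onecut1 read was lower at equal depth, and the part of depth was not tested further.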
